A study of Oryza sativa with 3 samples.

Results

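Rice cells detect chitin from fungal walls at the plasma membrane and pass the signal on through kinases and an oxidase. The genes described here encode parts of that machinery and of neighbouring immune pathways: the chitin receptors CEBIP and CERK1, the XA21-binding proteins XB15 and XB3, the NADPH oxidase RBOHB, the mitogen-activated protein (MAP) kinase MPK3, the co-chaperones RAR1 and SGT1, and the NPR1 homologue NH1. They were found by name, from 10 gene names looked up among the symbols and synonyms of the array's annotation. The rule uses no expression value, but the names were picked with earlier results of these data known. Of the names 9 were found, XB24 matched no annotated gene, and the names CERK1 and MPK3 each matched a pair of loci. The set therefore held 11 genes measured by 12 probe sets, of 17905 annotated genes and 57194 probe sets in all.

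The material was leaf tissue of the rice cultivar Kitaake, which flowers early, from greenhouse plants aged 6 weeks. Total RNA of 3 replicates, grown at the same time, was hybridised to 1 Affymetrix rice array each. There was 1 group with no mutant, elicitor or infection, so the data give signal in unchallenged leaves and its spread between replicates, and no comparison of conditions. The labels do not say how many plants a replicate held or whether replicates are separate plants, so the spread may be partly technical.

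Chitin fragments are bound by CEBIP, a receptor with extracellular LysM domains and no kinase of its own, and the signal is relayed by CERK1, a LysM receptor kinase that partners it. Downstream, MAP kinase cascades and NADPH oxidases act within minutes to hours to change transcription and produce a burst of reactive oxygen. XA21 is a receptor kinase for a bacterial ligand, and several proteins named XB were found by their binding to it. RAR1 and SGT1 work with the chaperone HSP90 to keep intracellular immune receptors stable, and NH1 carries the salicylate branch of defence.

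Values are RMA signals on the log2 scale, given as mean ± SD over the arrays. Probes differ in how strongly they bind, and signals of different genes are therefore not ranked. In bulk leaf RNA, fewer cells using a gene and less RNA per cell cannot be told apart. The arrays shared a median of 5.63, while the 75th percentile was 7.91, 7.93 and 7.79 in replicates 1, 2 and 3. The background bound was the 95th percentile of 64 reporter probe sets, which target transgenes, and came to 5.64, 5.60 and 5.77. All 10 probe sets of the 5 leaf markers (LHCP, PETE, RCAA1, PORB and OEE3) lay between 13.29 and 14.66. The meristem gene OSH1 and the anther genes TDR and CYP703A3 were below the bound, with highest means of 4.07 and 4.75, as was the root gene Lsi2 at 4.30, whereas the root gene Lsi1 had 9.10 and the seed genes GLB and GLUA-2, above the bound in all 3 of their probe sets, reached 9.96. Poly-A spike-in controls, which are added to the RNA before labelling, stood above the other arrays' mean on replicate 2 in 36 of 36 probe sets (median difference 0.29). On replicate 3 they stood below it in 35 (median difference -0.19).

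Most of this immune machinery gave signal in the unchallenged leaf, as did most annotated genes. Of the 12 probe sets 11 exceeded the bound on every array, against 47.1% of all probe sets. By gene, 10 of 11 did so, against 74.3% of annotated genes. With 11 genes, a count of 10 is near that share. The exception was XB3, at 4.49 on each array. The median of the mean signals was 8.91, against 5.63 for all probe sets. Many of the probe sets without a gene name are dim, and the members all have names, so the share of genes is the closer comparison.

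**Figure D1:**
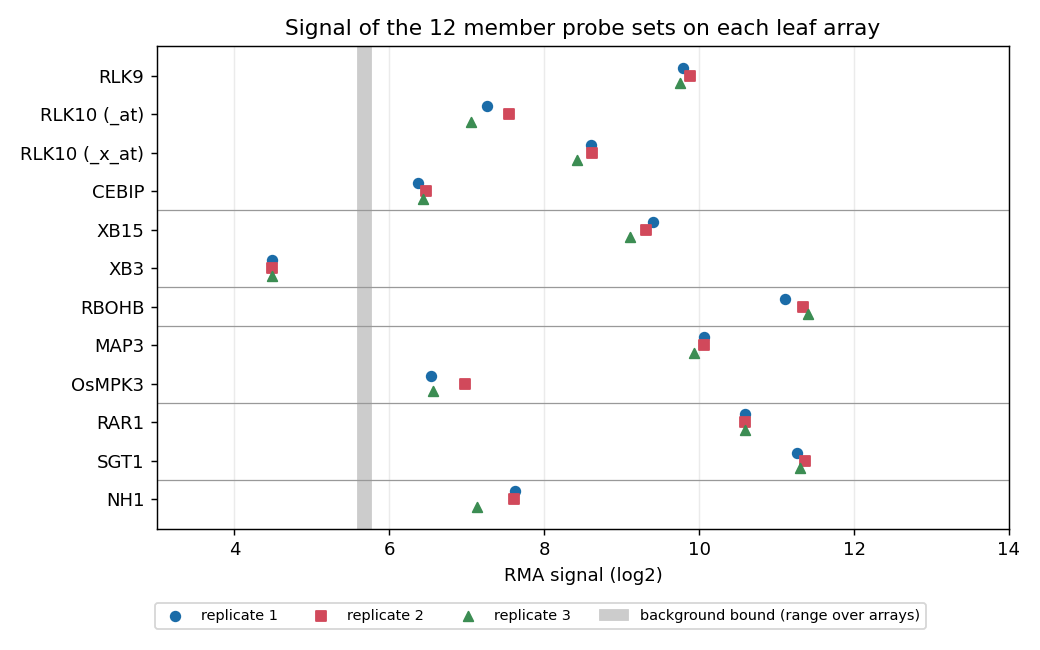
RMA signal (log2, horizontal axis) of the 12 probe sets, with 1 symbol per replicate and the range of the background bound over the arrays as a grey band; lines separate receptors, XA21 partners, oxidase, MAP kinases, co-chaperones and NH1. XB3 lies at 4.49, left of the band, and the other 11 probe sets lie right of it on every array.

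The receptor genes came first in the chain and were all above the bound. CEBIP (LOC4331522), the chitin-binding receptor, had signals of 6.38, 6.48 and 6.44 in replicates 1, 2 and 3, a mean of 6.43 ± 0.05 (SD, n = 3). Its narrowest margin over the bound was 0.67, the smallest among the 11 probe sets above it. The arrays were within 1.07-fold of each other in a probe set close to the bound.

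The annotation gives the synonym CERK1 to the loci LOC4346173, also called RLK9, and LOC9270778, also called RLK10. The table does not settle which of them is meant by the published chitin co-receptor, and both are therefore given. RLK9 had 9.79, 9.88 and 9.75 in replicates 1, 2 and 3 (9.81 ± 0.06), within 1.09-fold on all arrays. RLK10 has a pair of probe sets. The first, with no sign of shared probes in its name, had 7.26, 7.55 and 7.05 (7.29 ± 0.25). The second, whose suffix _x_at marks probes that can bind other transcripts, had 8.60, 8.62 and 8.43 (8.55 ± 0.11).

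The RLK10 probe sets had the same order of arrays, with replicate 2 highest and replicate 3 lowest. They differed in size, with a span over arrays of 1.41-fold in the first and 1.14-fold in the _x_at probe set. Relative to the mean of the other arrays, replicate 2 was higher by 0.39 in the first and by 0.10 in the second. For RLK9 the same difference was 0.10. The SD of the first RLK10 probe set was 2.06 times the median SD of all probe sets in the same decile of signal (0.12). The _x_at probe set was at 1.12 times, RLK9 at 0.66 times and CEBIP at 0.62 times the median of their deciles.

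The XA21 partners differed in whether they were detected. XB15 (LOC4334600), a protein phosphatase of the PP2C class that removes phosphate from XA21, had 9.40, 9.31 and 9.11 in replicates 1, 2 and 3 (9.28 ± 0.15). Replicate 3 was lowest, 0.25 below the mean of the others. XB3 (LOC4337598), a ubiquitin ligase that XA21 needs in order to accumulate, had 4.49 on every array, a difference of -1.28 from the highest bound. A signal under the bound gives no level for XB3 and does not show that its transcript was absent.

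RBOHB (LOC4326027), a membrane NADPH oxidase that makes superoxide outside the cell, was well above the bound on every array. It was at 11.11, 11.34 and 11.41 in replicates 1, 2 and 3, a mean of 11.29 ± 0.15 (SD, n = 3). Replicate 1 was lowest, 0.26 below the mean of the others, and replicate 3 was highest. It was the single member probe set whose highest value fell on replicate 3. That array was the sole highest in 4598 of the 26935 probe sets above the bound. Its span was 1.23-fold, and its SD was 2.24 times the median of its decile.

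The name MPK3 belongs to LOC4332475, listed as OsMPK3, MAPK5 and BIMK1, and to LOC4328297, listed as MAP3, MAPK2 and MPK3. OsMPK3 is the kinase that pathogens and wounding are known to induce. Its signals were 6.54, 6.98 and 6.57 in replicates 1, 2 and 3 (6.70 ± 0.24), at least 0.80 above the bound. Replicate 2 stood 0.42 above the mean of the others, which lay 0.03 apart. MAP3 had 10.07, 10.07 and 9.94 (10.02 ± 0.07), equal in replicates 1 and 2 and 0.13 lower in replicate 3.

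The pair that shares the MPK3 name thus differed in spread. The arrays spanned 1.35-fold for OsMPK3 and 1.09-fold for MAP3. Relative to the median of their own deciles, the SD of OsMPK3 was 2.93 times, the highest ratio of the 12 probe sets, and that of MAP3 1.08 times. The SD of OsMPK3 was still below the 90th percentile of its decile, 0.29.

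The co-chaperones varied little between arrays. SGT1 (LOC4326682) had 11.26, 11.37 and 11.30 in replicates 1, 2 and 3 (11.31 ± 0.05), within 1.08-fold. RAR1 (LOC4329567), a zinc-binding protein that bridges SGT1 and HSP90, had 10.59 on each array. Its exact tie, like that of XB3, was shared by 24.2% of all probe sets, against 2 of the 12 member probe sets. Median polish, the summary step of RMA, produces such ties over few arrays, so an SD of 0 is not an exact measurement. By rank RAR1 was at percentiles 93.9, 93.9 and 94.1.

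NH1 (LOC4327315), the rice counterpart of the salicylate co-activator NPR1, had the widest SD of the set. Its signals were 7.62, 7.61 and 7.13 in replicates 1, 2 and 3 (7.45 ± 0.28). Replicates 1 and 2 lay 0.01 apart and replicate 3 was 0.49 below their mean. The rank of its probe set moved with it, from percentiles 72.7 and 72.5 in replicates 1 and 2 to 69.1 in replicate 3. Its SD was 2.32 times the median of its decile.

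Spread between replicates stayed under 2-fold throughout. None of the 12 member probe sets (0) spanned 2-fold or more over the arrays, whereas 0.972% of all probe sets did. A count of 0 is close to that share. The median SD of the 12 was 0.09, against 0.07 for all probe sets. For the 11 member probe sets above the bound it was 0.11, against 0.08 for all those above the bound. With quantile normalization again the order turned, with 0.057 for the 12 members, 0.062 for all probe sets and 0.072 for those above the bound. Span over the arrays reached at most 1.41-fold, for RLK10 and NH1. By SD the members fell into 3 with 0.24 or more (NH1, RLK10 in its first probe set and OsMPK3), 2 near 0.15 (RBOHB and XB15) and 7 at 0.11 or less. The members with an SD of 0.24 or more had mean signals from 6.70 to 7.45. They lay in deciles 7 and 8 of signal, where the median SD of all probe sets was 0.08 and 0.12. These medians include probe sets tied on all arrays, 21.3% of decile 7 and 9.1% of decile 8. The 90th percentile of SD was 0.29 in both deciles, above the SD of each of these members. XB15 and RBOHB were also below the 90th percentile of their deciles, 0.22 and 0.19.

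**Figure D2:**
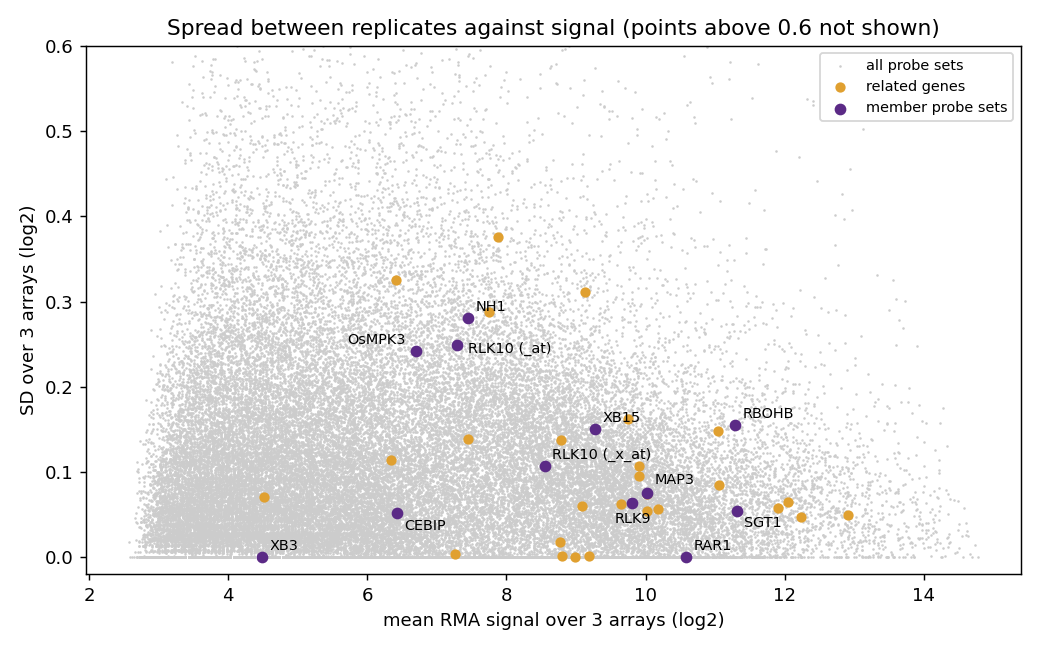
SD over the 3 arrays (log2, vertical axis) against mean RMA signal (log2, horizontal axis) for all probe sets in grey, 27 related immune genes in orange and the 12 member probe sets in purple; 351 probe sets with an SD above 0.6 are not shown. NH1, RLK10 and OsMPK3 lie between 0.24 and 0.28, and RAR1 and XB3 lie at 0.

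Replicate 2 was above the others for most of the set, as it was for much of the array. Compared with the mean of the other arrays, replicate 2 was higher in 10 of 12 probe sets and lower in 0, and the remaining 2 were the ties RAR1 and XB3. Over all probe sets 41.8% were higher in replicate 2, and 57.8% of those above the bound. By gene, 9 of 11 were higher, against 58.3% of all genes and 68.7% of genes above the bound. With 11 genes, a count of 9 is near the last of these shares. The median difference over the 11 genes was 0.08, against 0.02 over all genes and 0.05 over genes above the bound. Without replicate 1 the members' median was 0.12. Sizes were uneven: OsMPK3 (0.42), RLK10 (0.39) and NH1 (0.23) had the larger differences, and the other 6 genes that were higher had between 0.06 and 0.10. Replicate 2 was the sole highest array in 6 of 12 probe sets, those of RLK9, RLK10, CEBIP, OsMPK3 and SGT1. It was so in 10292 of all 57194 probe sets, and in 7596 of the 26935 above the bound.

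Replicate 3 was the low array for much of the set, but so it was for much of the array. It was below the mean of the others in 8 of 12 member probe sets, against 44.2% of all probe sets, and 62.0% of those above the bound. By gene the count was 7 of 11, against 60.6% of all genes, which is near that share, and 72.6% of genes above the bound. The median difference was -0.08 over the 11 genes, against -0.04 over all genes and -0.09 over genes above the bound. The members' median was 0.00 without replicate 2, -0.12 without replicate 1, -0.05 with quantile normalization again and -0.01 without RLK9 and MAP3. NH1 (-0.49), RLK10 (-0.35), XB15 (-0.25) and OsMPK3 (-0.19) had the larger differences, and RBOHB (0.18) went the other way. The spike-in controls and the 75th percentile were also low in replicate 3, and the spike-in controls were high in replicate 2. Their part in these differences was not tested.

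Replicate 1 divided the members. Signals there were below the other arrays' mean in 6 of 12 probe sets, against 34.9% of all probe sets. They were higher in 4, against 23379 of all 57194. Of the 26935 probe sets above the bound, 8648 were lower and 14610 higher. By gene, 6 of 11 were lower and 3 higher, against 4009 lower and 8124 higher of 13299 genes above the bound. RBOHB (-0.26) and OsMPK3 (-0.23) were low there, and NH1 (0.25) and XB15 (0.19) were high. The highest array thus differed between members: it was replicate 2 for OsMPK3 and RLK10, replicate 3 for RBOHB and replicate 1 for XB15, while NH1 was about equally high in replicates 1 and 2.

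Some small differences depended on scaling. With the arrays quantile-normalised again, replicate 2 was higher in 10 probe sets, of which 9 were the same ones, and XB15 turned to -0.01. No share of all probe sets is given for that setting. In replicate 3 RLK9 turned to 0.01 and SGT1 to 0.03. The differences of OsMPK3 (0.39) and RLK10 (0.34) in replicate 2, NH1 (-0.40) in replicate 3 and RBOHB (-0.29) in replicate 1 kept their direction.

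**Figure D3:**
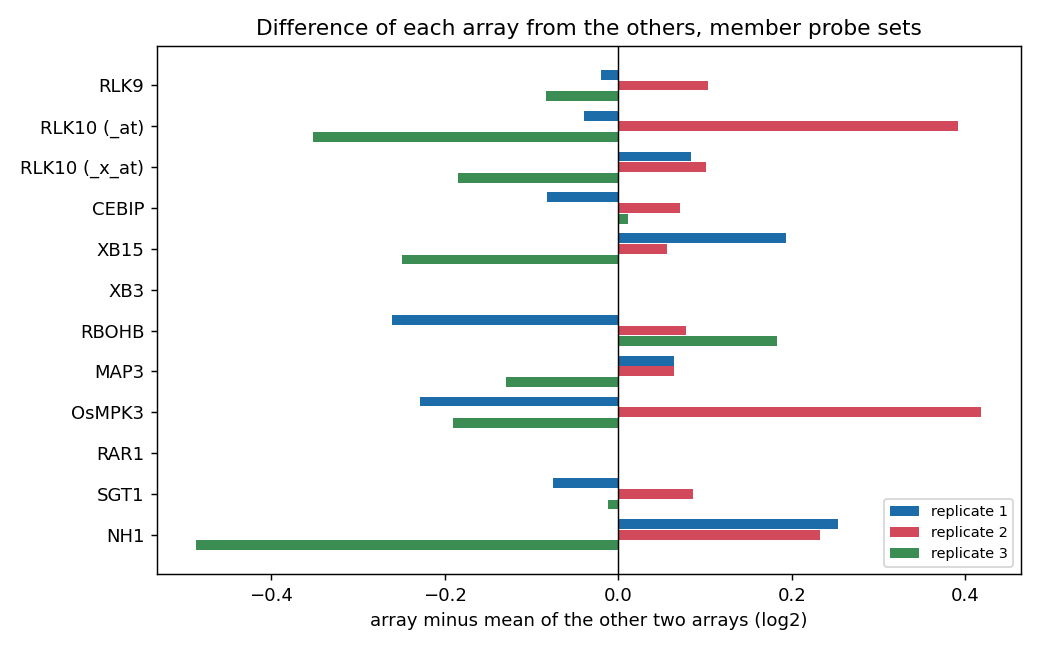
Difference of each array from the mean of the other arrays (log2, horizontal axis) for the 12 probe sets, with 1 bar per replicate; bars right of 0 mean a higher signal on that array. No bar of replicate 2 lies left of 0, the longest are OsMPK3 at 0.42 and RLK10 at 0.39, and NH1 in replicate 3 reaches -0.49.

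Other genes of these pathways were taken from a list of 88 names, of which 27 further genes were measured. Of these 26 exceeded the bound on every array, against 74.3% of all genes. The exception was CPK18, a calcium-dependent kinase, at 4.52 ± 0.07 in the probe set taken for it and 7.98 in its other probe set, whose _s_at suffix marks probes shared between transcripts. In replicate 2, 24 of 27 lay above the other arrays' mean and 2 below it, with a median of 0.08, the value of the members. The share was 58.3% of all genes and 68.7% of genes above the bound. In replicate 3, 21 of 27 were lower, with a median of -0.09. That count is near the share of genes above the bound, 72.6%, against 60.6% of all genes. The counts of the 27 genes depended on scaling. With quantile normalization again 18 were higher in replicate 2 and 15 lower in replicate 3, with medians of 0.05 and -0.01. No share of all genes is given for that setting. The replicate 2 median was 0.02 without replicate 3, and the replicate 3 median was -0.03 without replicate 2. No gene (0 of 27) spanned 2-fold, against 179 of all 17905 genes, so a count of 0 is close to that share.

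**Figure D4:**
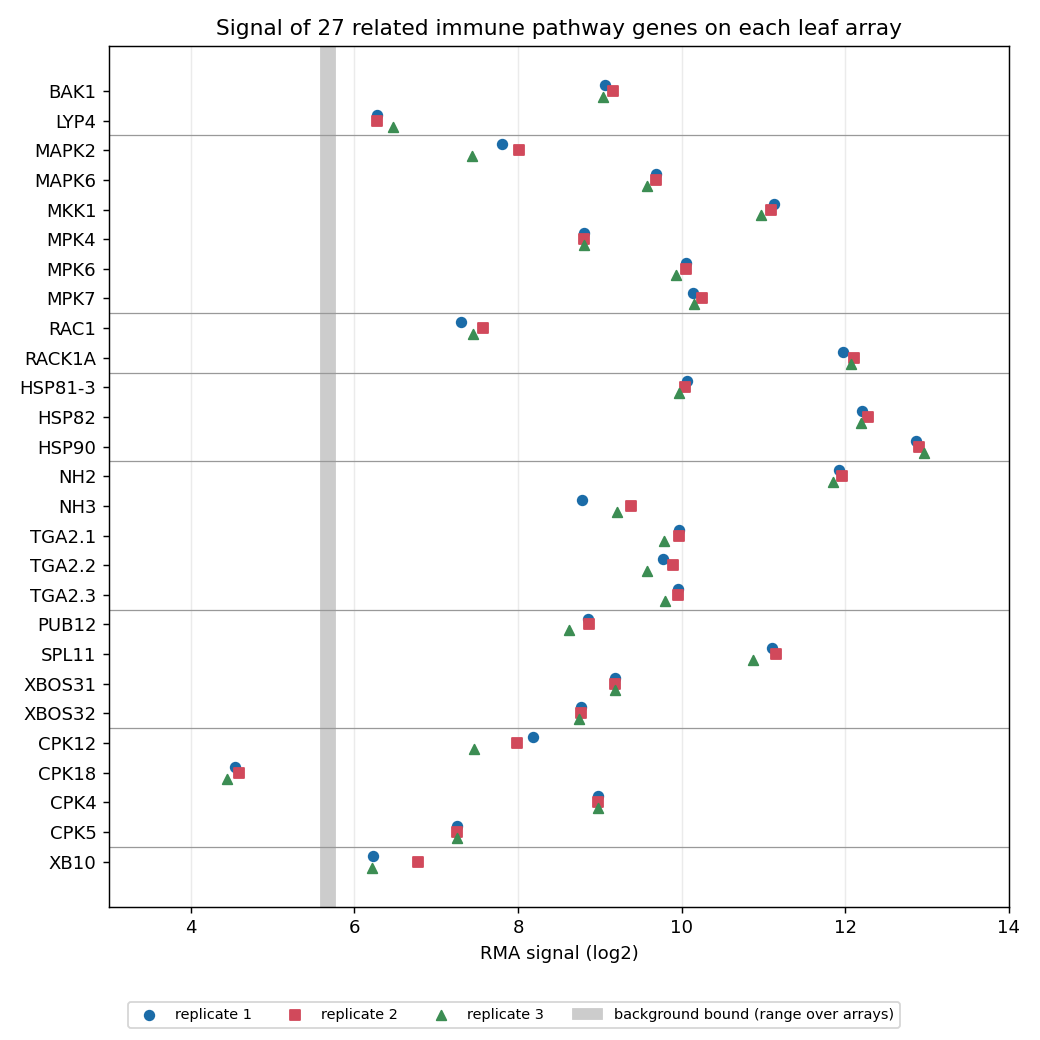
RMA signal (log2, horizontal axis) of 27 related immune genes, with 1 symbol per replicate, the background bound as a grey band, and lines between receptors, MAP kinases, the Rac GTPase module, chaperones, the salicylate module, ubiquitin ligases, calcium-dependent kinases and XB10. CPK18 lies left of the band at 4.52 and the other 26 genes lie right of it.

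Among receptors, LYP4 (LOC4347230), a LysM protein that binds chitin and peptidoglycan, had 6.27, 6.27 and 6.47 in replicates 1, 2 and 3. It was thus highest in replicate 3, unlike CEBIP. BAK1 (LOC4344785), a co-receptor kinase, had 9.07, 9.15 and 9.04. Their SDs were 0.11 and 0.06.

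All 6 further genes of the MAP kinase cascade were above the bound. All 6 were above the other arrays' mean in replicate 2 and below it in replicate 3, most by little. Of genes above the bound, 68.7% were higher in replicate 2 and 72.6% lower in replicate 3. With quantile normalization again 4 of the 6 were higher in replicate 2 and 4 lower in replicate 3. The shares above belong to the deposited values, and none is given for that setting. MKK1 (LOC4324023), a kinase that phosphorylates MAP kinases, had 11.13, 11.09 and 10.97. The MAP kinase LOC4328223, listed as MAPK2 and BIMK2, had 7.80, 8.01 and 7.44, a span of 1.48-fold, wider than the 1.35-fold of OsMPK3.

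The Rac GTPase module and the chaperones sit beside RBOHB and SGT1. RAC1 (LOC4325879), a small GTPase that binds the oxidase, had 7.30, 7.58 and 7.45, lowest in replicate 1. RACK1A (LOC4324115), a scaffold protein, had 11.98, 12.10 and 12.07, also lowest in replicate 1. Replicate 1 was the sole lowest array in 1844 of 13299 genes above the bound. HSP90 (LOC4347402), the chaperone partner of SGT1 and RAR1, had 12.86, 12.90 and 12.96, with an SD of 0.05. The probe sets of the other chaperone genes disagreed. HSP82 had an SD of 0.05 in the probe set taken for it and 0.25 in its other one, and the 5 probe sets of HSP81-3 had SDs from 0.01 to 0.44 and mean signals from 4.09 to 13.22.

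The NPR1 family spread most in NH1 and NH3. NH2 (LOC4325503), a paralogue of NH1, had 11.92, 11.96 and 11.85, within 1.08-fold. NH3 (LOC4333666), another paralogue, had 8.78, 9.38 and 9.21, a span of 1.52-fold. The low array was replicate 1 for NH3 but replicate 3 for NH1. In the other 3 probe sets of NH3 replicate 2 was also highest, while 2 of them were not above the bound on every array. The TGA factors, which bind NPR1 proteins, were at 9.75 to 9.90 in mean signal. Replicate 3 was lowest in all 3 genes, as in 7993 of 13299 genes above the bound.

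Ubiquitin ligases, calcium-dependent kinases and XB10 completed the list. SPL11 (LOC4352575), a ligase that restrains cell death, had 11.11, 11.15 and 10.88, and XBOS32 had 8.77, 8.77 and 8.74. CPK12 (LOC4336653) had the widest span of the 27 genes, 1.66-fold, at 8.19, 7.99 and 7.46, and CPK4 had 8.98 on every array. XB10 (LOC4347070), the WRKY62 transcription factor that binds XA21, had 6.23, 6.78 and 6.21, with replicate 2 0.56 above the mean of the others. The narrowest margin of XB10 over the bound was 0.44.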

How the data were processed

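The deposited table holds 1 log2 signal per probe set and array, made by the authors with RMA, per the submitters' processing notes. Neither the version of RMA nor its settings is stated there. RMA as usually run normalizes the arrays by quantiles and summarises by median polish. A shift of most genes on 1 array can therefore be hidden, at least in part. The deposited arrays were not equal in all quantiles, with 75th percentiles of 7.91, 7.93 and 7.79 in replicates 1, 2 and 3. Probe sets can have tied values, in 39.1% of the lowest decile of signal and 6.4% of the highest. Per the labels' protocols, RNA was extracted with TRIzol, DNase-treated, column-cleaned and labelled with biotin.

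The table has 57381 probe sets, and 187 of them, controls or reporters, were not analysed. The platform annotation gave 1 gene for 22436 probe sets, several for 95 and none for 34663. Genes were named through a RefSeq table of assembly ASM3414082v1, used for names alone. Names were compared without case and without a leading Os. Of 88 names on the list of related genes 36 were in the table. A further locus with the synonym RAC1 is actin and was left out. A gene with several probe sets took the one with the highest mean among those not ending in _x_at or _s_at.

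Each array was compared with the mean of the others, and values equal within 1e-09 counted as ties. With 1 group of 3 arrays no test was run, no p-value is given, and the number of arrays limits the precision. No gene was named for likeness to a member. Members and lists were chosen with earlier results of these data known. Every member is named. Of each group of related genes, those with the highest signal, the lowest signal and the largest SD are named. HSP82 and the TGA factors are mentioned outside this rule. The summaries were tested on simulated data. Python 3.11.15, numpy 2.4.6, pandas 2.3.3 and matplotlib 3.10.9 were used.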

Additional observations from a re-analysis of the deposited data

How the results depend on the processing

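The results were computed again with quantile normalization repeated, arrays centred on their medians, each replicate left out, the bound at the 90th or 99th percentile of reporters, probe sets above the bound alone, the mean of a gene's probe sets, every probe set on its own and, chosen after seeing the data, without the loci RLK9 and MAP3. The count of 11 member probe sets above the bound and the count of 0 spanning 2-fold were the same wherever computed. The related genes above the bound numbered 24 with the 99th percentile and 27 with the mean of probe sets, against 26. The median SD of the members was 0.057 with quantile normalization again, against 0.09. The members' median in replicate 2 stayed above 0 in each of these settings, from 0.06 to 0.12. In replicate 3 it was 0.00 without replicate 2 and -0.12 without replicate 1, against -0.08, and it was -0.01 without RLK9 and MAP3. The median of related genes in replicate 1 was 0.015, and turned to -0.028 with quantile normalization again. With a replicate left out it ran from -0.021 (without replicate 3) to 0.031 (without replicate 2). Why these values moved was not tested. No paired analysis was possible because there was 1 group. Error may be understated by tied values, as for RAR1 and XB3 on all arrays and MAP3 in replicates 1 and 2. CEBIP and OsMPK3, with narrowest margins over the bound of 0.67 and 0.80, had no ties.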
